A study of Mus musculus with 2 samples.

Results

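NF-kB is a family of dimeric transcription factors held inactive in the cytoplasm by inhibitor proteins of the IkB group. Signals from antigen receptors, TNF receptors and Toll-like receptors activate the IKK kinase complex, which marks the inhibitors for degradation and lets the dimers enter the nucleus. Several inhibitors are themselves NF-kB target genes, so the pathway carries its own negative feedback. The genes described here are those of the NF-kB subunits Nfkb1, Nfkb2, Rel, Rela and Relb, the IkB proteins Nfkbia, Nfkbib, Nfkbie and Nfkbid, and Tnfaip3, which encodes the ubiquitin-editing inhibitor A20. All probe sets were taken that the platform annotation gives to a single one of these symbols. Of the 10 genes, 9 were read by 17 probe sets, out of 18193 genes and 34945 probe sets with a single symbol. Nfkb1 had no such probe set and was not analysed here.

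Naive gamma/delta T cells, CD44- per the labels, were set against naive CD8+ alpha/beta T cells. Each group was 1 preparation on 1 Affymetrix MOE430 2.0 array, purified by negative selection from C57BL/6 lymph nodes. The labels name no mutation or treatment, and give no age, sex or number of mice. With no replicates there is no error and no p-value, and every ratio compares these 2 preparations. In RNA from whole preparations, fewer expressing cells and less RNA per cell cannot be told apart.

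Signals are MAS5 intensities in scaled units, read separately for each probe set, so that levels are compared between arrays and not between genes. The floor was a signal of 243.3, the higher of the medians of the arrays, and lower signals were set to that value. Log2 ratios are gamma/delta over CD8+ alpha/beta throughout. A probe set under the floor on 1 array has only a bound, and a probe set under it on both has no ratio. A call was a ratio of 2-fold or more. The pooled SD between probe sets of one gene on these arrays was 0.50 on the log2 scale over 3317 genes, the only spread that these data offer.

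The labels were checked against markers. All 4 CD3 and zeta chain genes lay above the floor on both arrays, and the 4 measured gamma/delta markers were above it on the gamma/delta array alone. Cd8a read 731.1 in gamma/delta T cells and 8852 in CD8+ alpha/beta T cells. Of 15 measured B cell markers, 11 were above the floor in gamma/delta T cells and 10 in CD8+ alpha/beta T cells, with summed signals of 9575 (gamma/delta) and 7628 (alpha/beta). Cd79a was 1 of 4 B cell markers under the floor on both arrays, at 43.5 (gamma/delta) and 187.5 (alpha/beta). Ebf1 was above it on both, at 3331 (gamma/delta) and 2650 (alpha/beta), and so was Ms4a1, at 858.2 (gamma/delta) and 616.0 (alpha/beta). Of the 11 with a ratio 8 were above 0 and 3 below. Pou2af1 had the highest ratio and was 2.89-fold higher in gamma/delta T cells. Of 12 myeloid and dendritic markers, 2 were above the floor in gamma/delta T cells and 3 in CD8+ alpha/beta T cells, with summed signals of 1886 (gamma/delta) and 1625 (alpha/beta), and no marker was at 0. Among 5 measured NK cell markers 3 were above the floor in gamma/delta T cells and 2 in CD8+ alpha/beta T cells (summed signals of 2347 for gamma/delta and 846.1 for alpha/beta, of which the granule protease gene Gzma made up 1442 for gamma/delta and 73.4 for alpha/beta), and among 5 helper and regulatory T cell markers 1 was on each array, with summed signals of 831.1 (gamma/delta) and 1210 (alpha/beta). The ratio of 3′ to 5′ actin signal, a measure of RNA integrity, was 6.99 in the gamma/delta preparation and 3.12 in the CD8+ alpha/beta preparation, and that of Gapdh 3.06 (gamma/delta) and 3.24 (alpha/beta). For the transferrin receptor the same ratio was 3.97 (gamma/delta) and 4.47 (alpha/beta), so that only actin was higher in the gamma/delta preparation. The part of other cell types and of RNA integrity in the results was not tested.

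Tnfaip3 and Nfkbia are both feedback inhibitors, and they differed in opposite directions. Their promoters are shown because both genes are known NF-kB targets. Each window runs from 250 bases before to 50 bases after the start of the gene, 5′ to 3′ on the minus strand, from RefSeq (GRCm38.p6). The Tnfaip3 window lies at chr10:19015361-19015660 and the Nfkbia window at chr12:55492598-55492897. Capitals mark matches, on either strand, to the 10-base kB consensus, the DNA element that NF-kB dimers bind.
Tnfaip3: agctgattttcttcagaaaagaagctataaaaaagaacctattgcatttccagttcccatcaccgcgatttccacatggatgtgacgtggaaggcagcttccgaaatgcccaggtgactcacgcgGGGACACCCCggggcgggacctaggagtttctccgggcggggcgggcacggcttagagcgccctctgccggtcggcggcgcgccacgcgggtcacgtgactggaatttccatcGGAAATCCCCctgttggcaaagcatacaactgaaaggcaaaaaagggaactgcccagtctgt
Nfkbia: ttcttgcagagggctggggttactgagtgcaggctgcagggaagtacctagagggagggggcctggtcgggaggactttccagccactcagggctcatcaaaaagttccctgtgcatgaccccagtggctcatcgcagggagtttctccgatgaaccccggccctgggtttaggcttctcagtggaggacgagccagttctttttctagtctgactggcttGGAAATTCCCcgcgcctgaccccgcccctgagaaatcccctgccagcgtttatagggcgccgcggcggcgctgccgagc

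The Tnfaip3 window held 2 matches, which began 125 and 12 bases before the start, and the Nfkbia window held 1, which began 29 bases before it. Promoter windows of this length numbered 13, for 8 of the 9 measured genes, and not all lay at the start of the gene. None of the Nfkb2 and Rela windows lay there. Of the 13 windows 8, from 6 genes, held at least 1 match. A second Tnfaip3 window, away from the start of the gene, held 0. The Nfkbid matches were in a window away from the start of the gene, and the Nfkbid window at it held 0. Some windows of Nfkb2 overlap and share matches. Over all 32851 promoter windows of the same length, 8.46% held a match. The 6 genes were Nfkb2, Rel, Nfkbia, Nfkbie, Nfkbid and Tnfaip3, and the windows of Rela and Nfkbib held none. Relb had no window. A match is a description of these letters and not evidence of binding in these cells.

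Among the inhibitors, Tnfaip3 had the highest ratio of gamma/delta T cells to CD8+ alpha/beta T cells. Its probe set 1433699_at read 8928 in gamma/delta T cells and 1507 in CD8+ alpha/beta T cells, which is 5.92-fold higher in gamma/delta T cells (log2 ratio of 2.57). Both signals were well above the floor, and of all 20297 probe sets with a ratio 5.20% were called higher. Tnfaip3 ranked 37th from the top of the 11914 genes with a ratio. The other Tnfaip3 probe set, 1450829_at, had 45.2 in gamma/delta T cells and 12.3 in CD8+ alpha/beta T cells, both under the floor, and gave no ratio.

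Nfkbia, which encodes IkB alpha, the inhibitor resynthesised after each round of NF-kB activation, was lower in gamma/delta T cells on all of its 5 probe sets. The 2 brightest, 1420088_at and 1420089_at, had 44367 and 38465 in gamma/delta T cells, against 72945 and 65678 in CD8+ alpha/beta T cells. Their log2 ratios of -0.72 and -0.77 did not reach 2-fold. The remaining 3 passed the call, which 4.37% of all probe sets with a ratio did in this direction. Probe set 1449731_s_at had 8307 in gamma/delta T cells and 19211 in CD8+ alpha/beta T cells, a 2.31-fold lower signal. Probe set 1438157_s_at had 1596 (gamma/delta) and 5063 (alpha/beta), and 1448306_at had 642.9 (gamma/delta) and 1758 (alpha/beta), which were 3.17-fold and 2.73-fold lower in gamma/delta T cells. All 5 were above the floor on both arrays, and no probe set placed the gamma/delta signal above the alpha/beta signal.

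The median log2 ratio over the 5 Nfkbia probe sets was -1.21, with an SD of 0.42 between them. They read the same pair of preparations and are not replicates. When a gene was represented by its brightest probe set, Nfkbia was not called, and with its probe sets averaged it was. A comparison chosen after these values were seen set Nfkbia beside other genes with many probe sets. Of 350 genes with at least 5 probe sets with a ratio, every probe set was lower in gamma/delta T cells for 38 (10.9%), and the median was also at least 2-fold lower for 4. These were Cd8a, Hnrnpdl, Klf3 and Nfkbia. Every probe set was higher in gamma/delta T cells for 13 of the 350 genes (3.71%). Bright probe sets as a whole leaned towards CD8+ alpha/beta T cells, with a median log2 ratio of -0.21 over the 111 that had signals above 20000 on both arrays, and 5 of these were at or below the ratio of 1420088_at, itself included. After quantile normalization and loess, which adjust for such a trend, the same 3 Nfkbia probe sets passed the call, 1449731_s_at at -1.01 after loess. These 3 are dimmer and not among the 111. The bright 1420088_at and 1420089_at went to -0.41 and -0.48 after quantile normalization, and to -0.39 and -0.45 after loess. The part of the trend in the Nfkbia ratios was not tested.

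**Figure D1:**
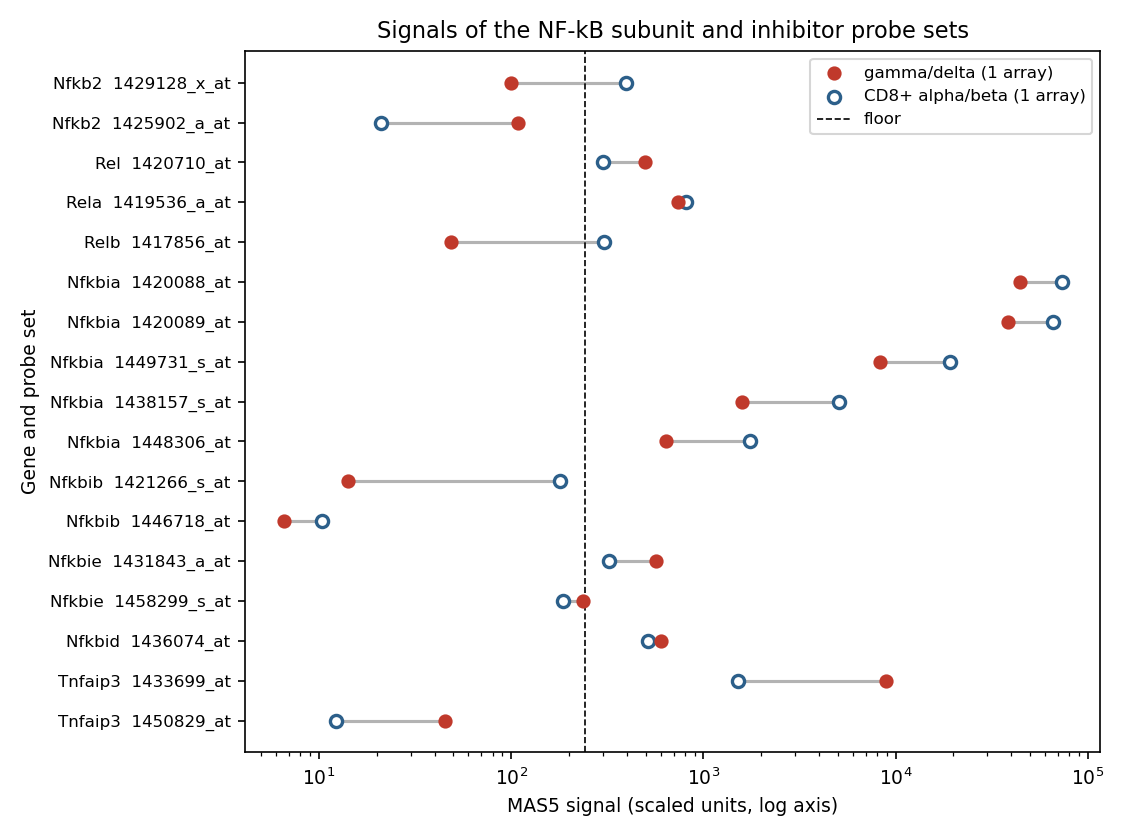
MAS5 signal on a log axis for each of the 17 probe sets, with filled points for the gamma/delta array, open points for the CD8+ alpha/beta array and a dashed line at the floor of 243.3. The 5 Nfkbia probe sets all have the gamma/delta point to the left, and Tnfaip3 1433699_at has it to the right, at 8928 against 1507.

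The remaining IkB genes showed no 2-fold difference. Nfkbie, which encodes the cytoplasmic inhibitor IkB epsilon, had 565.4 in gamma/delta T cells and 321.1 in CD8+ alpha/beta T cells on probe set 1431843_a_at, a log2 ratio of 0.82. Under a 70th percentile floor, a signal of 447.2, that ratio was at least 0.34. The other Nfkbie probe set, 1458299_s_at, had 235.3 (gamma/delta) and 185.2 (alpha/beta), under the floor on both arrays. Nfkbid encodes a nuclear IkB protein that acts on NF-kB dimers already bound to DNA, and its probe set 1436074_at had 599.3 in gamma/delta T cells and 513.0 in CD8+ alpha/beta T cells, a log2 ratio of 0.22. Nfkbib, which encodes IkB beta, stayed under the floor on both arrays with both of its probe sets. Probe set 1421266_s_at had 14.1 in gamma/delta T cells and 178.7 in CD8+ alpha/beta T cells, and 1446718_at had 6.58 (gamma/delta) and 10.3 (alpha/beta). Such low MAS5 signals carry little order, and no difference can be read from them.

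No subunit reached a 2-fold difference. Rela encodes p65, the activating subunit of the most common dimer, and its probe set 1419536_a_at had 740.9 in gamma/delta T cells and 809.1 in CD8+ alpha/beta T cells, a log2 ratio of -0.13. Rel encodes c-Rel, the lymphoid subunit, and its probe set 1420710_at had 496.3 (gamma/delta) and 301.9 (alpha/beta), a log2 ratio of 0.72. Under a 70th percentile floor, a signal of 447.2, the ratio of Rel was at least 0.15. Both genes were read above the floor on both arrays, by a single probe set each.

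Relb and Nfkb2 encode the partners RelB and p100, the precursor of p52, which form the dimer of the noncanonical pathway. Both were under the floor in gamma/delta T cells and just above it in CD8+ alpha/beta T cells. Relb had 48.8 in gamma/delta T cells and 304.5 in CD8+ alpha/beta T cells on 1417856_at, which makes it at least 1.25-fold lower in gamma/delta T cells. Nfkb2 had 99.8 (gamma/delta) and 394.5 (alpha/beta) on 1429128_x_at, at least 1.62-fold lower, while its other probe set, 1425902_a_at, had 108.6 in gamma/delta T cells and 21.1 in CD8+ alpha/beta T cells, both under the floor. The dimmer probe set gave no ratio. The size of these differences depended on the floor. Under a 30th percentile floor, a signal of 129.6, the log2 ratios were at most -1.23 for Relb and -1.61 for Nfkb2 1429128_x_at, both past the call.

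**Figure D2:**
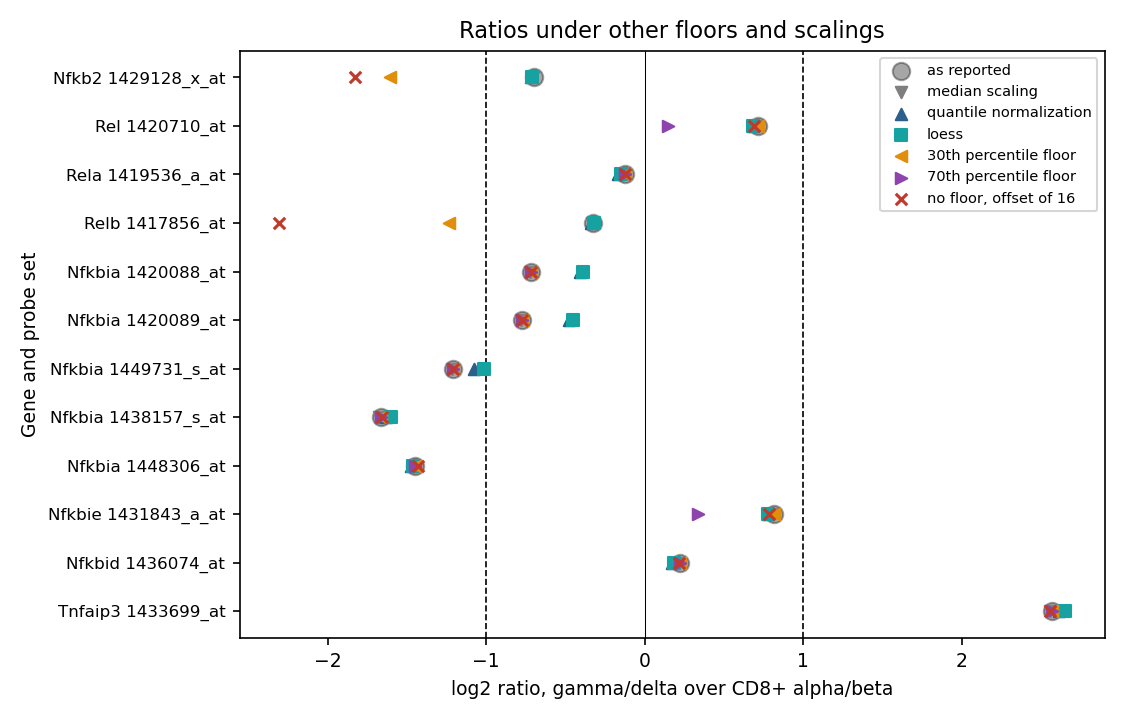
Log2 ratio of gamma/delta to CD8+ alpha/beta for the 12 probe sets with a ratio, as reported and under 3 other scalings, 2 other floors and no floor, with dashed lines at 2-fold. Tnfaip3 stays between 2.55 and 2.65 and the 3 called Nfkbia probe sets stay beyond the line, while Relb and Nfkb2 move past it with a lower floor or none.

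Over all 17 probe sets, 5 were under the floor on both arrays and 12 had a ratio, of which 2 were bounds. Among the members 1 of 12 was called higher (Tnfaip3) and 3 of 12 lower (all Nfkbia), beside the 5.20% and 4.37% of all probe sets. Among probe sets with both signals above 1000, 3.49% were called higher and 5.53% lower. The median log2 ratio over the 12 was -0.51, against 0.01 over all probe sets with a ratio, and 5 of the 12 read Nfkbia. By gene, with the brightest probe set for each, 4 of 8 were above 0 and 4 below, the median was 0.05 against 0.03 over all genes, and 1 of 8 was called higher and 0 lower. Across all genes with a ratio, 5.82% were called higher and 3.93% lower. The genes did not share a direction.

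**Figure D3:**
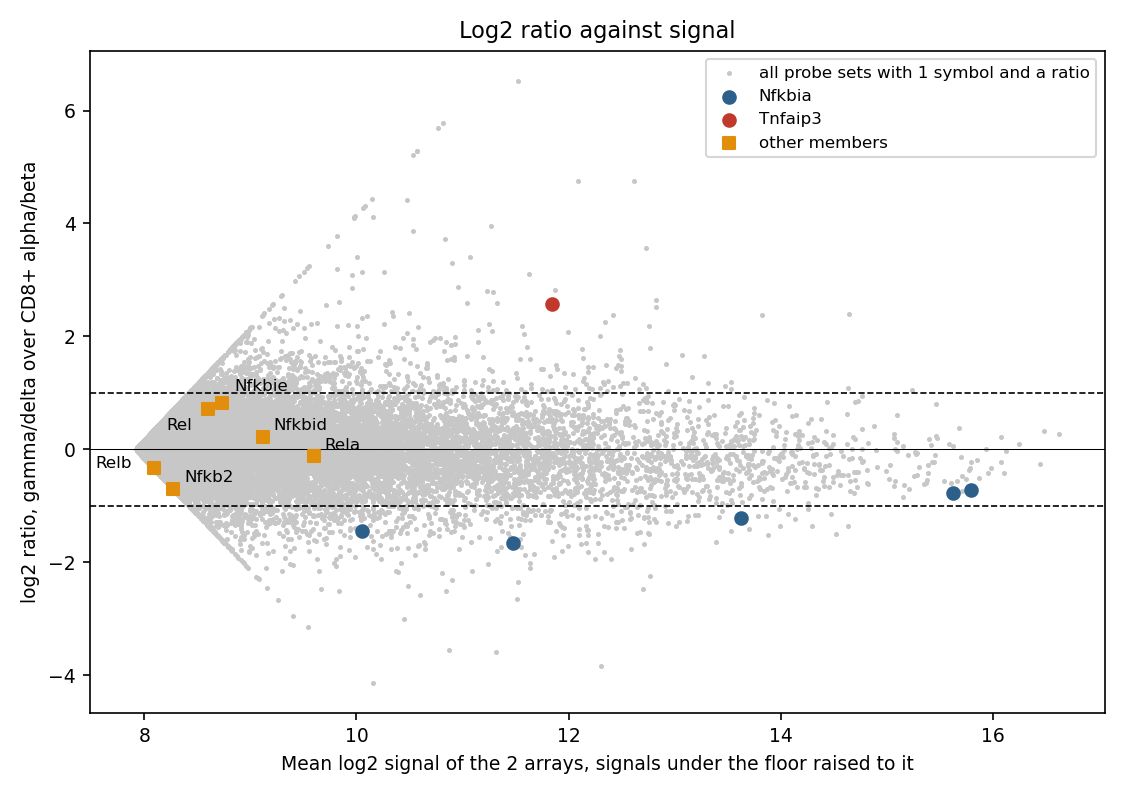
Log2 ratio of gamma/delta to CD8+ alpha/beta against the mean log2 signal of the arrays, with grey points for the 20297 probe sets that have a ratio, coloured points for the 12 of the NF-kB subunits and inhibitors, and dashed lines at 2-fold. Tnfaip3 (log2 ratio of 2.57) stands above the upper line, 3 of the 5 Nfkbia points below the lower line, and the other members between the lines.

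Upstream of the inhibitors, the IKK complex and the kinases and linear ubiquitin ligase that feed it were read for 12 genes, of which 11 had a ratio. In gamma/delta T cells 2 were called higher and 0 lower, beside 5.82% and 3.93% of all genes with a ratio. The list's median log2 ratio was -0.01. Ikbkg, which encodes NEMO, the regulatory subunit of IKK, had 1013 in gamma/delta T cells and 306.0 in CD8+ alpha/beta T cells and was 3.31-fold higher in gamma/delta T cells. The log2 ratios of its 4 informative probe sets spanned -0.27 to 1.73. With probe sets averaged the ratio was at least 0.53, a bound, since the alpha/beta average lay under the floor. The average took in 1435647_at and 1450161_at, which were under the floor on both arrays. Map3k14 encodes NIK, the kinase of the noncanonical pathway, and with 544.2 in gamma/delta T cells and 226.1 in CD8+ alpha/beta T cells it was at least 2.24-fold higher in gamma/delta T cells. Its bound fell to 0.28 on the log2 scale under the 70th percentile floor, and it had no ratio with probe sets averaged. That average took in 1434364_at, under the floor on both arrays at 53.6 (gamma/delta) and 12.1 (alpha/beta).

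The kinase subunit Ikbkb, which phosphorylates the IkB proteins, had 6076 in gamma/delta T cells and 7564 in CD8+ alpha/beta T cells, a log2 ratio of -0.32. Rnf31, the catalytic subunit of the linear ubiquitin ligase, had 414.6 (gamma/delta) and 128.0 (alpha/beta), a log2 ratio of at least 0.77. Map3k7, which encodes TAK1, the kinase that activates IKK, had 756.4 (gamma/delta) and 1156 (alpha/beta), a log2 ratio of -0.61. Averaging its probe sets gave 0.27. Probe set 1426627_at entered that average although it was under the floor on both arrays, at 43.6 (gamma/delta) and 9.40 (alpha/beta). The remaining Map3k7 probe sets disagreed in direction, with log2 ratios of -0.33, -0.03, 0.09 and 0.27. The IKK-related kinases Ikbke and Tbk1 had log2 ratios of 0.36 and -0.34. Chuk, the other kinase subunit, was not analysed here.

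Of 16 measured adaptors and ubiquitin ligases upstream of IKK, 14 had a ratio, with a median of 0.11. In gamma/delta T cells 0 were called higher and 1 lower, beside 5.82% and 3.93% of all genes with a ratio. The lower gene was Traf5, an adaptor of TNF receptors, with 272.2 in gamma/delta T cells and 604.4 in CD8+ alpha/beta T cells (2.22-fold). Under the 70th percentile floor its bound was -0.43, and with probe sets averaged its ratio was -0.45. That average took in 1447682_x_at, under the floor on both arrays at 241.5 (gamma/delta) and 203.0 (alpha/beta). Bcl10, an adaptor between the antigen receptor and IKK, had 1543 (gamma/delta) and 2814 (alpha/beta), a log2 ratio of -0.87. Its other probe sets had log2 ratios of -1.30, -1.04 and at most -0.23, so that all 4 were lower in gamma/delta T cells. Its partner Malt1, a paracaspase, had 4659 in gamma/delta T cells and 4126 in CD8+ alpha/beta T cells, a log2 ratio of 0.18, and Prkcq, the protein kinase C that acts above them in T cells, had 3287 (gamma/delta) and 2919 (alpha/beta), a log2 ratio of 0.17. Casp8, Tradd, Irak1 and Ube2n had log2 ratios of 0.72, 0.46, -0.41 and 0.29, and that of Irak1 was 0.24 without the suffixed probe sets (_x_at, _s_at and _a_at).

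Other inhibitors and modulators of the pathway were measured for 18 genes. By the brightest probe set none of the 16 with a ratio was called at 2-fold in either direction. Of all genes with a ratio, 5.82% were called higher and 3.93% lower. Among the 16, 6 were above 0 and 10 below, and the median was -0.09. Nkap had the log2 ratio farthest from 0, at -0.70, and Nkrf, the NF-kB repressing factor, had 0.59. Each value came from the only probe set of the gene with a ratio. With probe sets averaged the ratio was at least 0.24 for Nkap and was -0.17 for Nkrf. Those averages took in probe sets under the floor on both arrays, from which no difference can be read. Tax1bp1, Rnf11 and Tnip1, which encode partners of A20, had log2 ratios of -0.59, -0.59 and -0.50. Tnip1 was read by a single probe set. The other probe sets of Tax1bp1 ran from -0.60 to 0.17, and those of Rnf11 with a ratio had -1.10, past the call, and at most -0.66. Pdlim2, a ubiquitin ligase for p65, had a ratio of at least 0.50, and at least 1.14 under the 30th percentile floor. The nuclear IkB proteins Nfkbiz and Bcl3 stood at log2 ratios of 0.23 and 0.12. For Nfkbiz the probe sets disagreed, since 1457404_at had 904.1 in gamma/delta T cells and 2098 in CD8+ alpha/beta T cells, a log2 ratio of -1.21, while 1417483_at had 2750 (gamma/delta) and 2348 (alpha/beta).

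Known NF-kB target genes went both ways. Of 32 measured, 26 had a ratio, 13 of them above 0 and 13 below. In gamma/delta T cells 2 were called higher and 2 lower, beside 5.82% and 3.93% of all genes with a ratio. The median of the targets was -0.01. The AP-1 subunit Junb was 4.74-fold higher, at 1260 in gamma/delta T cells and 266.1 in CD8+ alpha/beta T cells. The latter signal was near the floor, and under the 70th percentile floor the bound of Junb was 1.49 on the log2 scale. Cxcl10, a chemokine that interferons also induce, was at least 3.03-fold higher, at 736.4 (gamma/delta) and 168.3 (alpha/beta), and its bound was 0.72 on the log2 scale under the 70th percentile floor. The adhesion molecule Icam1 was 2.23-fold lower, at 1331 (gamma/delta) and 2965 (alpha/beta). Cd83, an activation marker, was 2.26-fold lower, at 303.2 in gamma/delta T cells and 684.3 in CD8+ alpha/beta T cells, with a bound of -0.61 under the 70th percentile floor. The transcription factors Irf1 and Irf4 lay just short of the call, with log2 ratios of 0.98 and -0.93. After loess Irf1 was just past the call, and 3 targets were called higher. Birc3, an inhibitor of apoptosis and ubiquitin ligase, was named after its values were seen, and its probe sets disagreed. By the brighter one, 1425223_at, it had 488.6 in gamma/delta T cells and 514.7 in CD8+ alpha/beta T cells, a log2 ratio of -0.08, while 1421392_a_at had 1023 (gamma/delta) and 130.8 (alpha/beta) and was at least 4.20-fold higher in gamma/delta T cells. Cflar, also named after its values were seen, had a log2 ratio of -0.37 by its brightest probe set, 1424996_at. Its probe set 1425686_at had 241.4 (gamma/delta) and 1049 (alpha/beta) and was at least 4.31-fold lower in gamma/delta T cells. Probe set 1449317_at had 642.7 (gamma/delta) and 303.7 (alpha/beta) and was 2.12-fold higher. Its others had log2 ratios of -0.21 and at most -0.02. Junb and Cxcl10 are known to be induced by other signals as well as by NF-kB.

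**Figure D4:**
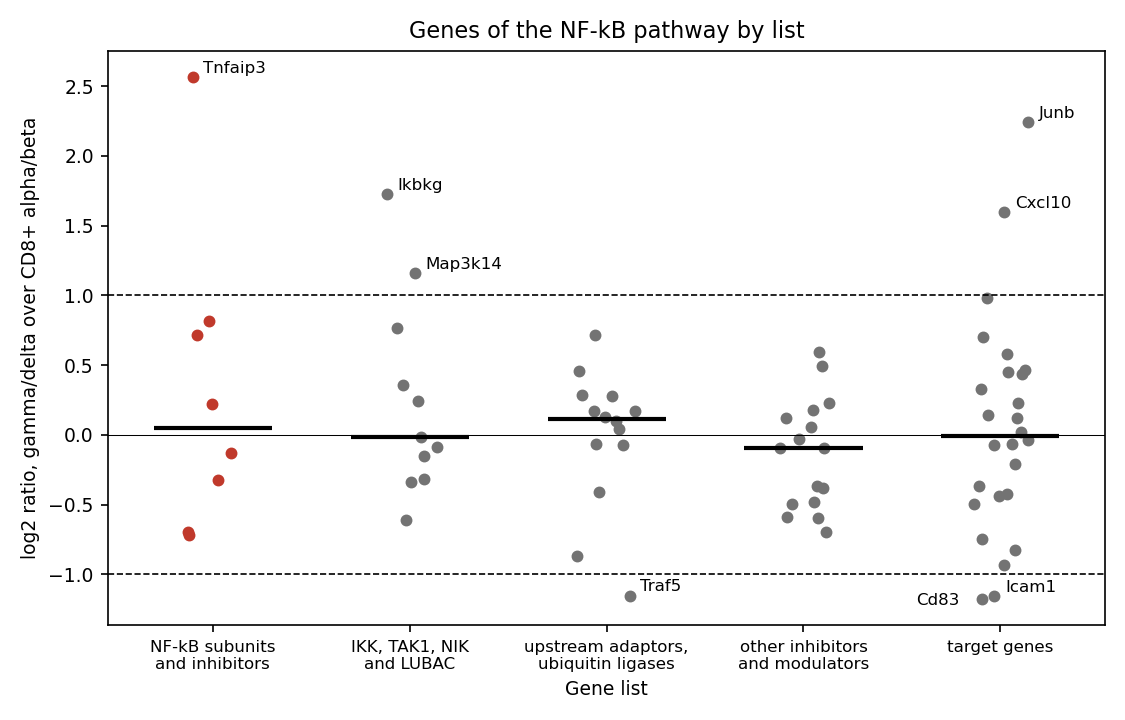
Log2 ratio of gamma/delta to CD8+ alpha/beta for each gene with a ratio in 5 lists, with a black bar at the list median and dashed lines at 2-fold. The medians lie between -0.09 and 0.11, and the named genes beyond the lines are Tnfaip3, Ikbkg, Map3k14, Junb and Cxcl10 above and Traf5, Icam1 and Cd83 below.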

How the data were processed

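RNA from 2 samples was hybridised to 1-colour arrays after the 1-cycle labelling, per the labels. Per the submitters' processing notes, the deposited intensity of each probe set is a MAS5 value from Affymetrix Expression Console 1.0. The deposited intensities had been scaled, since both arrays shared a 2% trimmed mean of 500.0. Detection calls were not used.

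Of 45101 probe sets 64 are controls, 932 have several symbols and 9160 are not listed in the platform annotation; these name no gene. Each gene was represented by the probe set brightest over both arrays (mean of log2 signals). Ratios, the floor and the 2-fold call are defined above. The members, 4 further lists of pathway genes, 7 marker lists and the alternatives were chosen with earlier results of these data known. Every member probe set is given, and of each further list up to 6 genes by size of ratio plus 9 fixed genes. Birc3 and Cflar were added after their values were seen. With 1 array per group no test was run, and precision is limited by the number of arrays. Computation used Python 3.11.15, pandas 2.3.3 and statsmodels 0.14.6, and was tested on simulated data.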

Additional observations from a re-analysis of the deposited data

How the results depend on the processing

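No paired analysis was possible because each group has 1 array. The alternatives were median scaling, quantile normalization, loess, floors at the 30th and 70th percentile, no floor with an offset of 16, a 1.5-fold call, leaving out suffixed probe sets (_x_at, _s_at and _a_at), and averaged probe sets; for single genes of the further lists they were chosen after seeing the data. No called value changed sign, and the 47 values of list medians moved by less than the pooled SD of 0.50. That SD is between probe sets of one gene, so it is a wide limit for medians near 0. Across the alternatives the median of the member genes ran from -0.13 to 0.22, and that of the member probe sets from -0.59 to -0.22. The median of the other inhibitors ran from -0.37 to -0.09. Of 106 counts, 77 stayed within 1.5 times. With the 30th percentile floor, 5 member probe sets (against 3) and 2 member genes (against 0) were called lower, and 1 other inhibitor higher (against 0). With the 70th percentile floor, 1 IKK-group gene (against 2) was called higher, 0 adaptors lower (against 1), and 1 target each way (against 2). With no floor, 3 member probe sets were called higher (against 1) and 6 lower, 3 member genes lower, 1 adaptor and 1 other inhibitor higher (against 0), and 4 targets lower. The member probe sets added as higher were Nfkb2 1425902_a_at and Tnfaip3 1450829_at, each under the floor on both arrays. With a 1.5-fold call, 3 member probe sets and 3 member genes were higher, and 6 probe sets and 2 genes lower. The same call gave 1 IKK-group gene lower, 1 adaptor higher and 2 lower, 1 other inhibitor higher and 3 lower, and 4 targets higher and 5 lower. Without the suffixed probe sets 1 member probe set was called lower, since 2 of the Nfkbia probe sets carry such a suffix. That lone one was 1448306_at. With probe sets averaged, 1 member gene (Nfkbia) was called lower, 0 IKK-group genes and 1 adaptor higher, and 0 adaptors lower. Averages were of log2 signals before the floor was applied, and took in probe sets under it on both arrays. Among the members, signals near the floor limit Relb, Nfkb2, Rel and Nfkbie. The cause of other changes was not tested.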
